A study of Mus musculus with 16 samples.

Results

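The full withdrawal phase of a doxycycline course was described by setting the 2 libraries taken 12 days after doxycycline was removed (labelled Day12-12) against the 2 libraries of total viable cells at day 12 of treatment (labelled Day12). These 4 libraries were chosen by their titles from 16 libraries of the series, and all 13652 genes in the files were compared. The cells were AML246, a mouse acute myeloid leukaemia line grown in medium with IL-3, and each library came from sorted viable cells. The day 12 group had received 0.1 µg/mL doxycycline for 12 days. The group 12 days off had received the same 12 days of doxycycline, then had it withdrawn, and was collected on course day 24. The series title ties doxycycline to restoration of PU.1 and its withdrawal to renewed knockdown. The labels used here do not describe the construct or the other alleles of the line. The libraries 12 days off were also 12 days later in culture, so withdrawal and time in culture cannot be told apart. AML246 is 1 line. Whether replicates A and B of a group came from separate cultures is not stated in the labels, and the spread behind each p-value may thus be technical.

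PU.1, encoded by Spi1, is an ETS-family transcription factor that opens and activates genes of granulocytes and macrophages, including genes for surface receptors, adhesion and the phagocyte oxidase. Leukaemic blasts with little PU.1 are held at an immature, growing stage. Growth of such cells draws on glycolysis, amino acid and nucleotide synthesis and new ribosomes, which are the pathways described first here. Signalling and structural pathways of mature myeloid cells are described after them.

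Levels are read counts scaled to library size (normalised CPM), given for replicate A and then replicate B. A fold is the level after 12 days off over that at day 12, and a gene was called higher or lower at an edgeR quasi-likelihood adjusted p under 0.05. Spi1 (chromosome 2, 91082374 to 91115759, GRCm38) stood at 226 and 219 CPM at day 12 and then at 54.8 and 37.2 CPM after 12 days off. Both later libraries were below both earlier ones (log2 fold -2.27, SE 0.15, edgeR adjusted p = 1.28e-08). The series title gives this direction for PU.1, and the sample labels state no Spi1 level. S100a9, a calprotectin chain of maturing granulocytes, went from 367 CPM in both day 12 libraries to 0.344 and 0.730 CPM (log2 fold -9.38, and -10.00 without replicate B of the later time). Ptgds, a prostaglandin D synthase, went from 6.98 and 6.83 CPM to 2558 and 1331 CPM (log2 fold 8.14).

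Of all genes tested, 32.9% were called higher and 32.4% lower, and 15% were called higher and 13.7% lower by more than 2-fold. These shares are the background for every gene list below, and the median log2 fold over all genes was 0.00. With library size alone in place of TMM scaling that median was 0.11, and list medians moved up by about as much. Library totals ran from 12962801 to 26509803 counts over the series. The 2 libraries taken 12 days off stood apart from each other. Among genes averaging 10 CPM or more, 265 of 9320 differed more than 2-fold between them, against 3 of 9166 between the day 12 libraries. The gap followed gene length as the files give it. In genes under 500 bases the median log2 fold over day 12 was 1.34 with replicate A alone and 0.83 with replicate B alone, and in genes of 6000 bases or more it was -0.83 and -0.25. The same slope was present at 4 days off (0.62 to -0.15), at 8 days off (0.80 to -0.19) and in untreated cells at day 0 over day 12 (1.01 to -0.34). A fit with each library's length trend removed was therefore added, and the counts higher and lower in it are given for the pathway lists. In that fit 32.4% of genes were called higher and 32.5% lower. A fit of the 4 compared libraries alone called fewer genes, 3136 higher and 2865 lower against 4492 and 4425, and is named beside most of the larger list counts that it moved by more than 1.5 times.

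**Figure D1:**
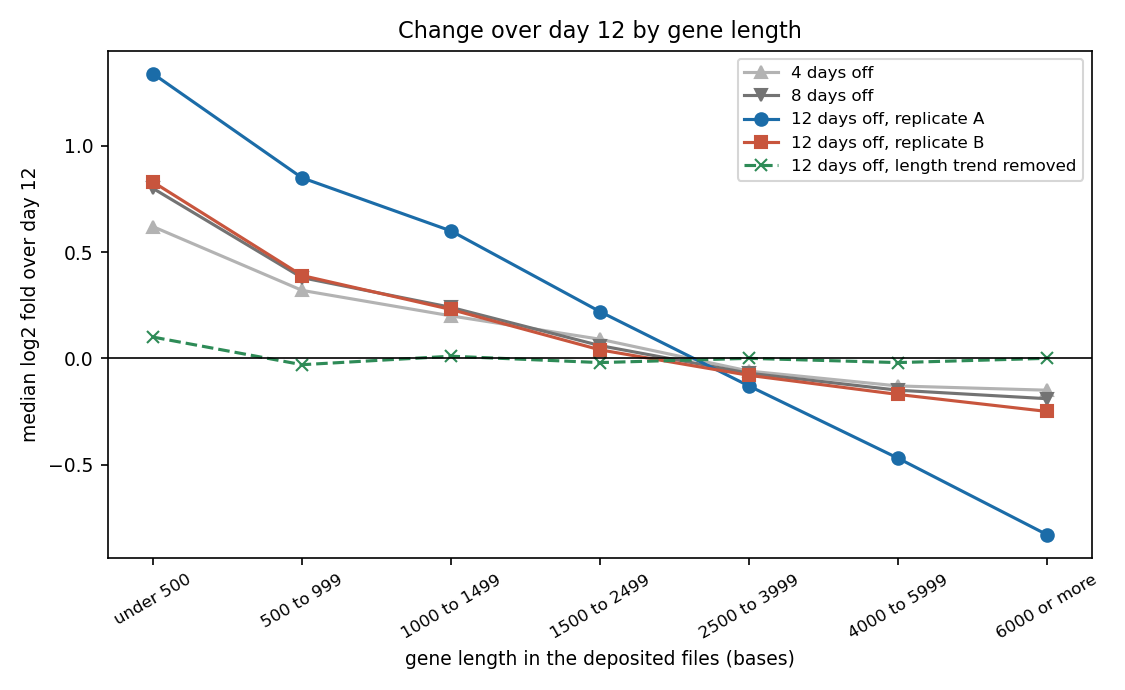
Median log2 fold over day 12 (vertical axis) for genes grouped by length in bases (horizontal axis), with 1 line for each time off doxycycline, for each replicate at 12 days off, and for the fit with the length trend removed. Replicate A at 12 days off runs from 1.34 in the shortest genes to -0.83 in the longest, replicate B from 0.83 to -0.25, and the fit without the trend stays between -0.03 and 0.10.

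Genes of the oxygen-sensing response and of glycolysis had the largest median rises of the metabolic lists. Hypoxia-inducible factors (HIF) turn on genes for glucose breakdown, lactate export and mitochondrial control through sites with the letters ACGTG. Of 32 measured HIF targets, 25 rose and 4 fell, 19 of them rising more than 2-fold, with a median log2 fold of 1.34 (1.30 with replicate A alone, 1.28 with B alone). With the length trend removed, 27 rose and 3 fell. Of 27 targets with a promoter in the RefSeq table (GRCm38.p6), 19 (70.4%) carried ACGTG on either strand in the 250 bases before a start, against 24.7% of 10257 genes with a promoter. The letters were no more frequent than that before all genes that rose more than 2-fold (23.6%), and lists that fell also held them, with 9 of 25 genes of the G protein and cyclic nucleotide list (36%) and 7 of 22 of the Toll-like receptor and IL-1 list (31.8%). In the glycolysis list the count was 12 of 22 (54.5%). The HIF list was drawn up as genes of the HIF response, so its share describes the list. The letters also lie within CACGTG, which was present before 9.65% of genes. A match is a run of letters, not a measured binding site. The windows of 5 genes that rose are shown because they carry the motif of this group, with each match in capitals, read 5′ to 3′ on the strand of the gene.
Bnip3 (chr7:138909507-138909756, minus strand): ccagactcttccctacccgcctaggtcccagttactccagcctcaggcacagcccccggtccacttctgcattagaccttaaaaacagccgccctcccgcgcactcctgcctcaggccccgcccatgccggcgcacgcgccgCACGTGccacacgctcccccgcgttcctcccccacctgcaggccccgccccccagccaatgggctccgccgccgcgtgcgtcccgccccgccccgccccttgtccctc
Egln3 (chr12:54203875-54204124, minus strand): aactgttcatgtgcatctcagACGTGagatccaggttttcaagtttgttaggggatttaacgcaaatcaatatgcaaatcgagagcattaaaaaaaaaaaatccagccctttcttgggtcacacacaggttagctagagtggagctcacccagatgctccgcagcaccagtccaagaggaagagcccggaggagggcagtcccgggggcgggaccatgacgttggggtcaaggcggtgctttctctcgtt
Ankrd37 (chr8:45999851-46000100, minus strand): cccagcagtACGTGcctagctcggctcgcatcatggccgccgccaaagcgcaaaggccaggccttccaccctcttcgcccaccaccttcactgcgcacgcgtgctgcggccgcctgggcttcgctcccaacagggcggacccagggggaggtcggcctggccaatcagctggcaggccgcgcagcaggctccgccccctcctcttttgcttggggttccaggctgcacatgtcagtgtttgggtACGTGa
Ldha (chr7:46845554-46845803, plus strand): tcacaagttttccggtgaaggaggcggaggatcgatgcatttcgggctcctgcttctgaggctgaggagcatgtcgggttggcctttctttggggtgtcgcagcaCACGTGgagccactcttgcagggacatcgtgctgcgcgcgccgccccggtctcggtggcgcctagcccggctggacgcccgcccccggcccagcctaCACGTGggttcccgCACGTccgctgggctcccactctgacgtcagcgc
Pgk1 (chrX:106186850-106187099, plus strand): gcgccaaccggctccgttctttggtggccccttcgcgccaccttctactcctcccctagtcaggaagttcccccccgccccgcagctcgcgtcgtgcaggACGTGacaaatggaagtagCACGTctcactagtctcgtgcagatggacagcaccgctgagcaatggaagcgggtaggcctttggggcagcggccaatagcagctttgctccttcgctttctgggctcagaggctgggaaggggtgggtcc

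Egln3, an oxygen-sensing prolyl hydroxylase that is itself a HIF target, stood at 55.7 and 56.3 CPM at day 12 and then at 409 and 412 CPM after 12 days off (log2 fold 2.87, SE 0.17, edgeR adjusted p = 4.24e-09). Its match lies 224 bases before the start. Bnip3, a mitochondrial outer membrane protein that marks mitochondria for removal, went from 57.4 and 60.1 to 528 and 562 CPM (log2 fold 3.21, SE 0.23). In both genes the 2 later libraries lay close together and far above day 12. Ankrd37 went from 3.83 and 3.20 to 134 and 65.4 CPM, a log2 fold of 4.83 that was 4.22 without replicate A of the later time. Stc2, a secreted glycoprotein, went from 5.97 and 8.03 to 87.5 and 90.9 CPM (log2 fold 3.67, SE 0.24). Pdk1, the kinase that shuts pyruvate dehydrogenase, went from 38.1 and 35.3 to 159 and 205 CPM (log2 fold 2.31, SE 0.16). Ak4, a mitochondrial adenylate kinase, had 0 reads in the day 12 libraries and 1152 reads after 12 days off, at least 426-fold higher with 3 reads over both libraries as the floor. Mif, a cytokine that is not in the HIF target list, was named for the size of its rise. It went from 51.5 and 52.6 to 578 and 389 CPM. Its log2 fold of 3.21 was 2.39 with the length trend removed. Members of the HIF list that fell included Pfkfb3, a regulator of glycolytic flux (78.2 and 80.0 to 38.8 and 47.5 CPM). Rora, a nuclear receptor of the list, had 54 reads at day 12 and 0 later, at least 16.2-fold lower.

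Glycolysis genes were higher as a list, with 16 of 23 rising and 5 falling and a median log2 fold of 1.21. The counts were 17 and 5 with the length trend removed. Ldha, the lactate dehydrogenase chain that favours lactate, stood at 680 and 700 CPM at day 12 and then at 2975 and 2345 CPM after 12 days off (log2 fold 1.95, SE 0.14). Its window above holds 5 matches, some overlapping, between 29 and 140 bases before the start. Pgk1, phosphoglycerate kinase, went from 30.6 and 31.6 to 144 and 136 CPM (log2 fold 2.17, SE 0.12). Slc16a3, the lactate exporter MCT4, went from 194 and 193 to 665 and 632 CPM (log2 fold 1.75, SE 0.12). The groups did not overlap in any of these 3 genes, as was so for 8894 of all 8917 called genes. The largest edgeR adjusted p among the 3 was 3.09e-08. Ldha and Pgk1 have near-identical copies elsewhere in the genome, so their counts may be split among copies. Against them, Slc2a3, the glucose transporter GLUT3, went from 77.0 and 81.8 to 9.23 and 10.99 CPM (log2 fold -2.97, SE 0.12). Hk3, a hexokinase of myeloid cells, went from 31.9 and 34.0 to 5.99 and 6.29 CPM (log2 fold -2.42, SE 0.16).

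The rise went past the level of untreated cells. In 28 of 32 HIF targets and 20 of 23 glycolysis genes both libraries 12 days off stood above both day 0 libraries, which was so for 29.8% of all genes. The lists' medians over day 12 were 0.70 and 0.74 at 4 days off and 0.89 and 0.93 at 8 days off, against -0.12 and -0.33 at day 0. These contrasts share the day 12 libraries. Egln3 averaged 54.8 CPM at day 0, 156 CPM at 4 days off and 336 CPM at 8 days off. Slc2a3 instead was back near its day 0 mean of 6.52 CPM by 4 days off (11.3 CPM).

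**Figure D2:**
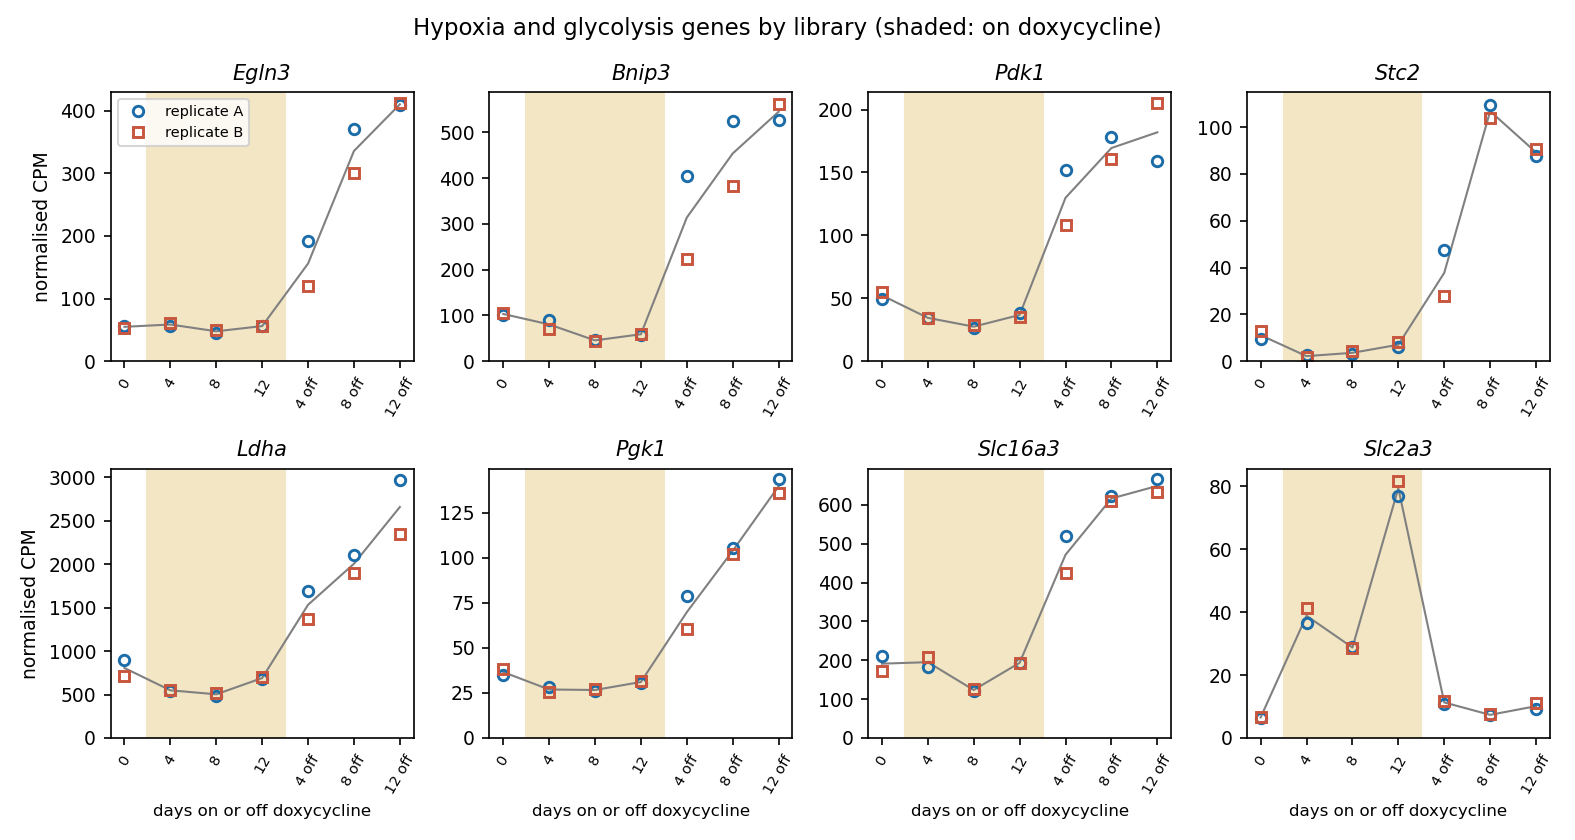
Normalised CPM (vertical axes, from 0) of 8 genes in each library over the course (horizontal axes, days on or off doxycycline), with circles for replicate A, squares for replicate B, a line through the means and shading for the doxycycline phase. Egln3, Bnip3, Pdk1, Stc2, Ldha, Pgk1 and Slc16a3 are higher at every time off doxycycline than at day 12, while Slc2a3 is near 80 CPM at day 12 and near 10 CPM after 12 days off.

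Genes of the pentose phosphate route did not share this rise. G6pdx, the first enzyme of its oxidative branch, went from 124 and 117 to 52.9 and 56.4 CPM (log2 fold -1.14, SE 0.11). Tkt, transketolase of the non-oxidative branch, went from 1119 and 1075 to 714 and 616 CPM (log2 fold -0.72, SE 0.13). Pgls, a small enzyme of the oxidative branch, rose from 17.6 and 19.98 to 71.6 and 44.2 CPM (log2 fold 1.62, and 1.02 with the length trend removed). Of the 7 members, 1 rose (2 without replicate B of the later time) and 4 fell (2 with the 4 libraries alone), and the counts were 1 and 4 with the length trend removed.

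Mitochondrial genes gave an answer that depended on gene length. Of 25 genes of the citric acid cycle, 12 rose and 2 fell (11 and 1 with the length trend removed). Pcx, pyruvate carboxylase, went from 26.8 and 25.6 to 67.2 and 61.6 CPM (log2 fold 1.30, SE 0.15), and Fh1, fumarase, from 39.5 and 40.5 to 105 and 80.3 CPM (log2 fold 1.21, SE 0.13). Cs, citrate synthase, fell from 376 and 360 to 229 and 247 CPM (log2 fold -0.63, SE 0.11). Of 55 nuclear genes of the respiratory chain, 50 rose and 0 fell (2 without replicate A of the later time), with a median log2 fold of 0.71 (0.99 with replicate A alone, 0.41 with B alone). Their median length was 739 bases, against 2627 bases for all genes, and with the length trend removed 21 rose, 10 fell and the median was 0.12. With the 4 libraries alone 22 rose. Ndufb6, a complex I chain, had a log2 fold of 1.28 that became 0.43 in that fit. Transcripts of the mitochondrial genome did not move together, with 4 of 15 called higher and 4 lower. The ribosomal RNA mt-Rnr1 went from 83.8 and 97.1 to 483 and 435 CPM (log2 fold 2.34, SE 0.21), while CYTB, which encodes cytochrome b, went from 3479 and 3636 to 1989 and 2191 CPM (log2 fold -0.77, SE 0.13). With the length trend removed 1 of the 15 was higher and 9 were lower. In 14 of the 15, both libraries 12 days off stood below both day 0 libraries, which was so for 31.2% of all genes.

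Lipid genes split by branch. Of 24 cholesterol synthesis genes, 14 rose and 3 fell, with a median log2 fold of 0.48 and counts of 14 and 4 with the length trend removed. Without replicate A of day 12, 1 fell. Hmgcs1, which makes HMG-CoA, went from 149 CPM in both libraries to 383 and 360 CPM (log2 fold 1.32, SE 0.12). This list came late, with a median over day 12 of -0.30 at 4 days off and 0.02 at 8 days off. In 19 of 24 members both libraries 12 days off were above both day 0 libraries, against 29.8% of all genes.

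The eicosanoid and sphingolipid lists were mostly lower, and fatty acid oxidation was not. In the eicosanoid list 2 of 18 rose and 11 fell (median log2 fold -1.11, and 3 and 11 with the length trend removed). Ptgds, given above, was 1 of the 2 that rose. With it, the list summed to 2521 and 2466 CPM at day 12 and to 3582 and 2299 CPM after 12 days off. Alox5ap, which presents arachidonic acid to 5-lipoxygenase, went from 188 and 185 to 10.1 and 8.89 CPM (log2 fold -4.30, SE 0.20), and Ptgs1, cyclooxygenase 1, from 140 and 123 to 18.8 and 22.4 CPM (log2 fold -2.67, SE 0.12). Among sphingolipid genes 3 of 22 rose and 13 fell, as in the fit with the length trend removed. Sgpl1, sphingosine-1-phosphate lyase, went from 359 and 344 to 74.4 and 106 CPM (log2 fold -1.96, SE 0.16). For triglycerides, Dgat2, an acyltransferase, fell from 78.4 and 76.4 to 21.5 and 24.8 CPM (log2 fold -1.74, SE 0.12). Fatty acid oxidation had 7 of 24 genes higher and 8 lower, near the share of all genes, with 7 and 10 once the length trend was removed. The count lower was 4 when replicate A or B of day 12 or replicate B of the later time was left out, 4 with library size alone and 3 with the 4 libraries alone. In this list Acadl, an acyl-CoA dehydrogenase, went from 96.6 and 101 to 259 and 228 CPM, and Cpt1a, the gate for fatty acid entry, from 79.3 and 76.2 to 34.5 and 45.6 CPM. Fatty acid synthesis had 7 of 19 higher and 6 lower (9 and 5 with the length trend removed), and LXR targets, which export sterols, had 2 of 11 higher and 5 lower in both fits.

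Genes that make serine, glycine and other amino acids rose. Of 22 genes of serine and one-carbon metabolism, 17 rose and 2 fell (median log2 fold 0.74, and 18 and 2 with the length trend removed). Without either day 12 replicate 1 fell. Phgdh, the first enzyme of serine synthesis, went from 18.9 and 17.7 to 115 and 82.9 CPM (log2 fold 2.43, SE 0.16), and Psat1, the next enzyme, from 140 and 145 to 581 and 555 CPM (log2 fold 1.99, SE 0.12). Gcsh, a carrier of the glycine cleavage system, went from 17.7 and 16.8 to 61.4 and 50.7 CPM (log2 fold 1.70, SE 0.12). Slc19a1, the reduced folate carrier, is not a member of this list. It went from 8.39 and 8.83 to 102 and 90.6 CPM (log2 fold 3.48, SE 0.15, edgeR adjusted p = 1.12e-10). Tyms, thymidylate synthase, which uses folate for DNA, fell from 95.5 and 97.9 to 56.3 and 52.6 CPM (log2 fold -0.83, SE 0.09). In this list 5 of 22 genes had both libraries above day 0 and 8 had both below, against 29.8% and 31.2% of all genes.

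Targets of ATF4, the factor of the amino acid response, rose in 16 of 22 and fell in 2 (median log2 fold 0.85, and 16 and 3 with the length trend removed). The letters TGATGNAA, with N any base and on either strand, lay before 7 of 20 of these genes with a promoter (35%). They lay before 2.5% of all genes with a promoter, 2.26% of those that rose more than 2-fold and 2.85% of those that fell more than 2-fold. The list was drawn up as genes of the ATF4 response, so its share describes the list. Gpt2, a mitochondrial alanine aminotransferase, went from 15.1 and 13.7 to 95.8 and 86.3 CPM (log2 fold 2.66, SE 0.16). Pycr1, of proline synthesis, went from 2.96 and 3.12 to 18.5 and 16.4 CPM (log2 fold 2.52, SE 0.18), and Slc6a9, a glycine transporter, from 14 and 15.8 to 51.4 and 51.0 CPM (log2 fold 1.78, SE 0.13). Slc7a11, the cystine importer, fell instead, from 40.7 and 44.2 to 10.9 and 17.8 CPM (log2 fold -1.56, SE 0.21). Enzymes and partners that charge tRNAs rose in 20 of 23 and fell in 0 (22 and 0 with the length trend removed), with Yars, tyrosyl-tRNA synthetase, at 90.5 and 95.9 and then 285 and 214 CPM. With replicate A of the later time left out, 1 of the 23 was called lower.

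Nucleotide, polyamine and redox genes were mixed. Among 28 genes of purine and pyrimidine synthesis 18 rose and 7 fell (16 and 6 with the length trend removed). Dhodh, the mitochondrial step of pyrimidine synthesis, went from 22.2 and 24.1 to 82.5 and 66.5 CPM (log2 fold 1.69, SE 0.12). The salvage kinases Tk1 (62.1 and 61.8 to 22.6 and 21.5 CPM) and Dck (231 and 220 to 71.5 and 95.6 CPM) fell. Of 12 polyamine genes 4 rose and 2 fell (5 and 3 with the length trend removed, and 4 lower without replicate A of the later time). Among them Odc1, ornithine decarboxylase, rose from 43.0 and 46.9 to 130 and 123 CPM, and Srm, spermidine synthase, from 131 CPM in both libraries to 464 and 378 CPM. In the glutathione and NRF2 list 19 of 31 rose and 7 fell (15 and 9 with the length trend removed, and 12 higher with the 4 libraries alone). Gstm5, a glutathione transferase, went from 42.1 and 41.3 to 337 and 226 CPM (log2 fold 2.76, SE 0.19), while Gsr, glutathione reductase, went from 1149 and 1104 to 680 and 663 CPM (log2 fold -0.75, SE 0.10). Iron and heme genes had 7 of 24 higher and 5 lower (8 and 7 with the length trend removed, and 8 lower without replicate B of the later time), and metal handling held a pair of large changes. Slc40a1, the iron exporter ferroportin, fell from 144 and 136 to 7.41 and 9.08 CPM (log2 fold -4.08, SE 0.20). Mt2, a metallothionein outside the iron and heme list, rose from 13.4 and 14.8 to 367 and 214 CPM. Its log2 fold of 4.36 was 3.52 with the length trend removed.

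In the main fit genes for ribosomes were higher almost throughout, and translation factors were mostly higher. Cytosolic ribosomal proteins rose in 75 of 76 genes and fell in 0, with a median log2 fold of 1.63 (1.99 with replicate A alone, 1.20 with B alone). Their median length was 706.5 bases, and with the length trend removed 72 rose and the median was 0.88. Rpl22, a large subunit protein, went from 251 and 256 to 1150 and 793 CPM (log2 fold 1.94, SE 0.16). These genes have many processed copies, among which reads may be split. Mitochondrial ribosomal proteins rose in 73 of 75, and in 50 with 3 lower once the length trend was removed (median log2 fold 0.80 and 0.42). Ribosome biogenesis factors, whose median length was 2743.5 bases, rose in 40 of 46 and fell in 0 (43 and 1 with the length trend removed, and 1 lower without replicate B of the later time). Noc2l, a factor of pre-ribosome export, went from 149 and 155 to 463 and 440 CPM (log2 fold 1.57, SE 0.10), and Gnl3, nucleostemin, from 52.9 and 59.9 to 225 and 211 CPM (log2 fold 1.95, SE 0.12). In 36 of 46 biogenesis factors both libraries 12 days off stood above both day 0 libraries, against 29.8% of all genes. This was so for only 28 of 76 cytosolic and 19 of 75 mitochondrial ribosomal proteins. Translation factors rose in 21 of 33 and fell in 4 (21 and 2 with the length trend removed, and 2 lower without replicate B of day 12 or A of the later time). Eif4ebp1, which holds back cap-dependent translation, also rose, from 37.9 and 37.0 to 176 and 124 CPM. Myc, a transcription factor that drives growth genes, went from 186 and 180 to 459 and 451 CPM (log2 fold 1.31, SE 0.09, edgeR adjusted p = 2.23e-08). A list of Myc, Max, their partners and antagonists and Myb family genes had 14 measured members. Of these 2 rose and 7 fell (4 and 5 with the length trend removed). With the 4 libraries alone 3 fell. The Myc antagonist Mxd1 moved the opposite way to Myc, from 120 and 124 to 35.2 and 39.3 CPM (log2 fold -1.71, SE 0.11).

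**Figure D3:**
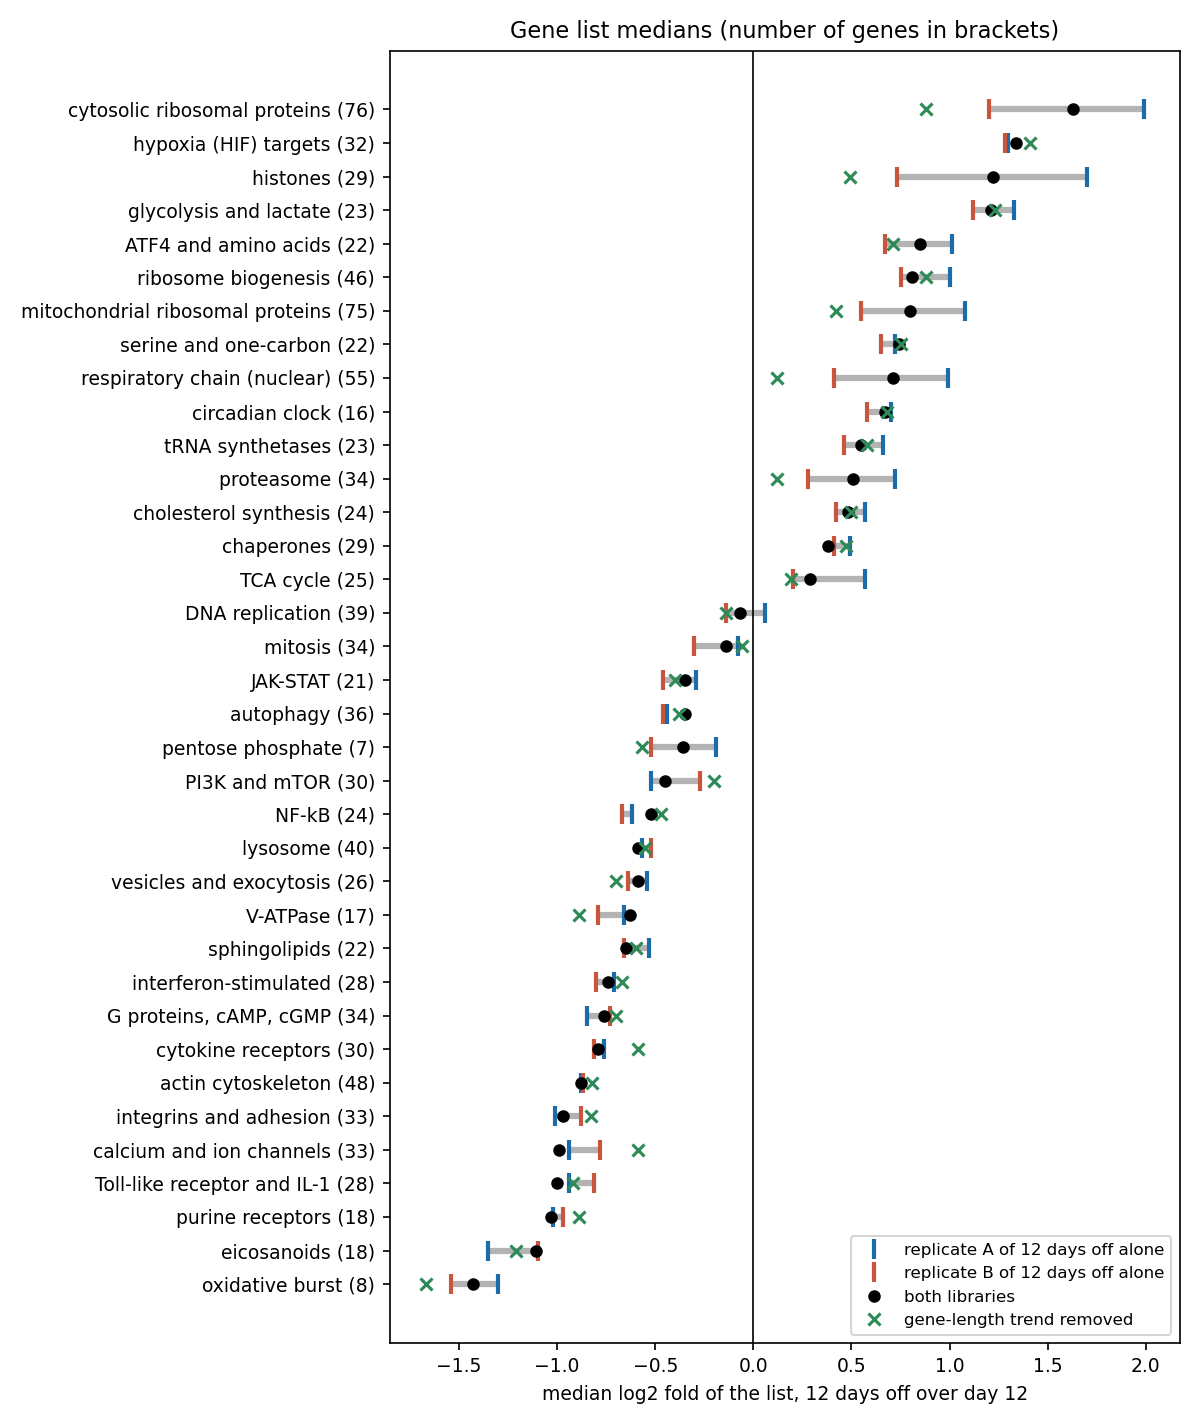
Median log2 fold of 12 days off over day 12 (horizontal axis) for 36 gene lists (vertical axis, number of genes in brackets), with black points for both libraries, blue and red ticks for replicate A or B of 12 days off alone, and green crosses for the fit with the gene-length trend removed. HIF targets, glycolysis, serine and ribosome biogenesis keep their place in all of these, while the respiratory chain drops from 0.71 to 0.12 and the cytosolic ribosomal proteins from 1.63 to 0.88.

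Cell cycle lists did not share the direction of the growth lists. Of 39 DNA replication genes, 12 rose and 15 fell (12 and 16 with the length trend removed, 6 and 9 with the 4 libraries alone), and their median log2 fold of -0.07 became 0.03 with library size alone and 0.06 without replicate B of the later time. Mcm3, a chain of the replicative helicase, went from 435 and 427 to 217 and 215 CPM (log2 fold -1.0, SE 0.13), while Orc1, of the origin recognition complex, went from 13.4 and 14.4 to 33.6 and 38.1 CPM (log2 fold 1.37, SE 0.11). In 24 of the 39 both libraries stood below day 0, against 31.2% of all genes. Mitosis genes fell in 16 of 34 and rose in 7 (14 and 5 with the length trend removed), and the count that rose was 2 or 3 without replicate A or B of day 12, 3 without replicate A of the later time 12 without its replicate B and 1 with the 4 libraries alone. Mki67, the Ki-67 antigen of cycling cells, went from 774 and 804 to 305 and 377 CPM, with a log2 fold of -1.21 that was -0.55 with the length trend removed. Among G1 cyclins and CDK inhibitors 8 of 25 rose (5 without replicate A of day 12 or with the 4 libraries alone) and 13 fell, and with the length trend removed 5 rose and 13 fell. Ccne1, cyclin E1, which drives entry into S phase, went from 22.5 and 21.7 to 3.34 and 2.51 CPM (log2 fold -2.92, SE 0.20). E2f8, an E2F factor that represses, went from 195 and 191 to 34.9 and 55.6 CPM (log2 fold -2.09, SE 0.17), and Rbl2, the pocket protein p130, from 163 and 161 to 45.8 and 65.5 CPM (log2 fold -1.54, SE 0.14). Cdk4, the G1 kinase, rose from 252 and 249 to 515 and 422 CPM (log2 fold 0.90, SE 0.11).

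Trp53, which encodes p53, stood at 50.7 and 52.99 CPM at day 12 and then at 219 and 185 CPM after 12 days off (log2 fold 1.96, SE 0.15, edgeR adjusted p = 5.68e-08), above its day 0 mean of 89.1 CPM. The count covers the whole gene, and the labels used here do not give its alleles. Of 24 genes listed as p53 targets, Trp53 included, 10 rose (6 without replicate B of day 12 or with the 4 libraries alone) and 7 fell, and with the length trend removed 9 rose and 9 fell. Phlda3, an inhibitor of Akt, went from 15.6 and 14.9 to 70.6 and 52.0 CPM (log2 fold 2.0, SE 0.16), and Ddb2, a DNA damage sensor, from 23.2 and 26.4 to 8.25 and 10.2 CPM (log2 fold -1.42, SE 0.16). Among BCL2 family genes 1 of 16 rose and 7 fell (4 and 9 with the length trend removed, and 3 higher without replicate B of the later time). The one that rose was Bbc3, the death-promoting member PUMA (21.5 and 21.9 to 59.5 and 40.5 CPM). Bcl2l1, which encodes the survival protein BCL-XL, fell from 45.9 and 43.0 to 24.2 and 18.4 CPM, as did Pmaip1, the death-promoting NOXA, from 48.9 and 49.9 to 24.7 and 25.4 CPM.

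**Figure D4:**
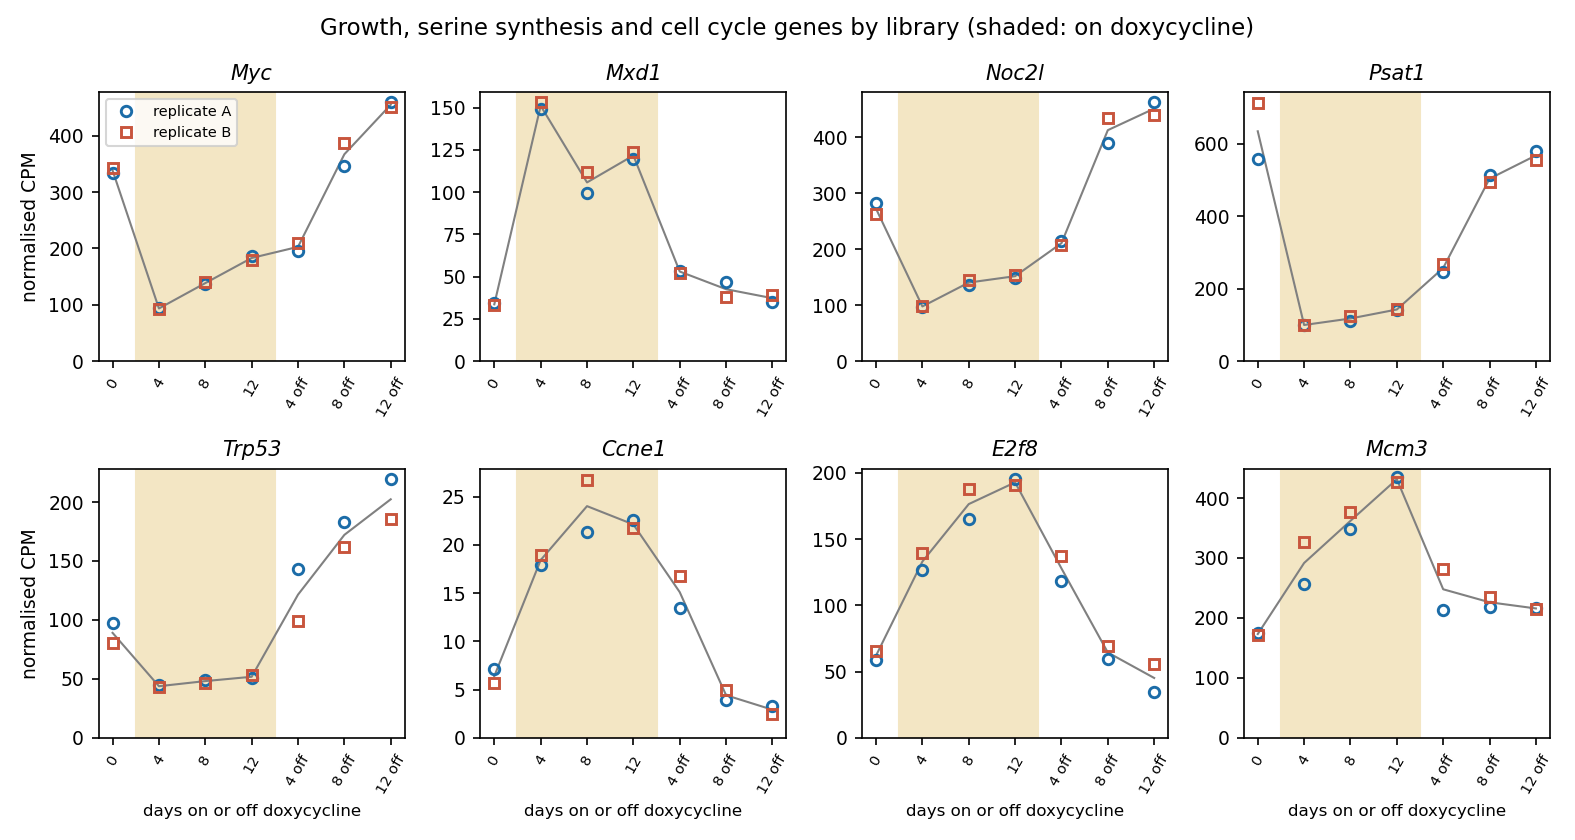
Normalised CPM (vertical axes, from 0) of 8 genes in each library over the course (horizontal axes, days on or off doxycycline), with circles for replicate A, squares for replicate B, a line through the means and shading for the doxycycline phase. Myc, Noc2l, Psat1 and Trp53 are higher 12 days off than at day 12, and Mxd1, Ccne1, E2f8 and Mcm3 are lower.

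Chromatin lists differed from one another. DNA repair genes had 9 of 34 higher and 10 lower (15 and 8 with the length trend removed, 5 and 6 with the 4 libraries alone), with a share lower near that of all genes. Among DNA methylation and Polycomb genes 5 of 39 rose (3 without replicate B of day 12) and 19 fell, and with the length trend removed, in a list whose median length was 4373 bases, 9 rose and 12 fell. With the 4 libraries alone 3 rose and 8 fell. Dnmt1, the maintenance methyltransferase, went from 616 and 613 to 237 and 333 CPM (log2 fold -1.11, SE 0.15). Kdm1a, the demethylase LSD1, went from 99.8 and 103 to 179 and 168 CPM (log2 fold 0.77, SE 0.10). Rcor2, a partner of LSD1 outside this list, went from 6.20 and 6.67 to 111 and 96.5 CPM (log2 fold 4.01, SE 0.19). Histone genes rose in 17 of 29 and fell in 2. H2bc4, an H2B gene, went from 4.605 and 4.915 to 65.9 and 30.1 CPM, with a log2 fold of 3.33 that was 2.66 without replicate A of the later time. In the fit with the length trend removed 13 histone genes rose and 5 fell. Circadian genes rose in 10 of 16 and fell in 2 (12 and 1 with the length trend removed, and 1 lower without either day 12 replicate or replicate A of the later time), with Ciart, a clock repressor, at 1.60 and 1.76 and then 11.4 and 11.7 CPM.

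Protein folding and breakdown lists did not move together. Chaperones of the cytosol and mitochondria rose in 19 of 29 and fell in 0 (18 and 0 with the length trend removed). Tcp1, a chain of the chaperonin that folds actin and tubulin, went from 420 and 427 to 974 and 820 CPM (log2 fold 1.08, SE 0.10). Proteasome subunits rose in 23 of 34 and in 15 with the length trend removed (median log2 fold 0.51 and 0.12), and in 11 with the 4 libraries alone. In the endoplasmic reticulum 4 of 26 genes of the unfolded protein response rose and 14 fell. The counts were 5 and 12 with the length trend removed, and 8 fell with the 4 libraries alone. The shift was small, with a median log2 fold of -0.31 (-0.22 with the length trend removed) and 1 gene lower by more than 2-fold. That gene was Edem1, which delivers misfolded glycoproteins for breakdown, at 1468 and 1447 and then 434 and 566 CPM (log2 fold -1.54, SE 0.14). Xbp1, of the same list, went from 299 and 300 to 492 and 446 CPM. Lysosomal genes fell in 26 of 40 and rose in 7, with the same counts once the length trend was removed. Man2b1, lysosomal alpha-mannosidase, went from 1453 and 1386 to 244 and 269 CPM (log2 fold -2.47, SE 0.13), and Gusb, beta-glucuronidase, from 836 and 814 to 245 and 244 CPM (log2 fold -1.76, SE 0.13). Chains of the proton pump that acidifies lysosomes fell in 12 of 17 (15 with the length trend removed), among them Atp6v0d1 (226 and 215 to 99.9 and 78.9 CPM). Autophagy genes fell in 19 of 36 and rose in 8 (21 and 8 with the length trend removed). Immunoproteasome and MHC class I genes fell in 7 of 17 (4 without replicate A of day 12) and rose in 4 (2 and 7 without replicate A or B of the later time), and 3 of 9 MHC class II genes rose and 2 fell. With the length trend removed 11 fell and 1 rose in the class I list, and 2 rose and 4 fell in the class II list. With the 4 libraries alone 4 fell and 0 rose in the former, and 1 rose and 1 fell in the latter. In the class II list 1 rose without replicate B of day 12 or A of the later time. Tfeb, which encodes a transcription factor of lysosomal genes, fell from 37.2 and 38.1 to 18.6 and 13.5 CPM (log2 fold -1.23, SE 0.15).

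Signalling pathways of mature myeloid cells were lower as groups. In the Toll-like receptor and IL-1 list 21 of 28 fell and 2 rose (median log2 fold -1.0), in the G protein and cyclic nucleotide list 27 of 34 fell and 2 rose (-0.76), and among purine receptors and adenosine enzymes 12 of 18 fell and 2 rose (-1.03). NF-kB genes fell in 17 of 24, interferon-stimulated genes in 17 of 28, cytokine receptors in 20 of 30 and calcium and ion channel genes in 23 of 33. Without replicate B of day 12 the counts that rose were 1 and 1 in the Toll-like receptor and G protein lists, and without replicate B of the later time 4 rose in the former. With the length trend removed the counts that fell were 21, 24, 12, 15, 18, 18 and 21, in the same order. The letters GAGGAAGT, the core bound by PU.1 on either strand, lay before 81 of 1441 genes that fell more than 2-fold and have a promoter (5.62%), before 32 of 1369 that rose more than 2-fold (2.34%) and before 3.1% of all genes with a promoter. Only some of the lists were searched for these letters. Among those that fell, they lay before 3 of 13 neutrophil granule (23.1%) and 3 of 22 Toll-like receptor genes (13.6%). The counts were 2 of 25 for G protein genes (8%) and 3 of 41 for actin genes (7.32%). The letters lay before 0 of 3 oxidative burst genes, a list that also fell. Among lists that rose, the share was 0% for glycolysis, ATF4 and serine genes and 3.7% for HIF targets. It was 12.8% (5 of 39) for ribosome biogenesis, which also rose. Each share rests on 41 genes or fewer. The windows of 3 genes that fell are shown as examples that hold these letters, with the match in capitals.
Pik3cg (chr12:32208471-32208720, minus strand): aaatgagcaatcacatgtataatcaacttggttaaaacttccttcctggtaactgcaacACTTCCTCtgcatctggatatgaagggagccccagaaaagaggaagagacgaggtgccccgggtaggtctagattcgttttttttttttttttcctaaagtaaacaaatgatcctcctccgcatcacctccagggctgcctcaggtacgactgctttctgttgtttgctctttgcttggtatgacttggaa
Ptgs1 (chr2:36230176-36230425, plus strand): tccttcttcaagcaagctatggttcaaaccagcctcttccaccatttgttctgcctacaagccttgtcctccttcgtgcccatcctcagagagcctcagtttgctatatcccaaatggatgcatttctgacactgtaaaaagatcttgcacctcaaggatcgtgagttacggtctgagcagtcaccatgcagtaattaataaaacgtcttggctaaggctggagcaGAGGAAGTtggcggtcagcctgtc
Apobr (chr7:126584758-126585007, plus strand): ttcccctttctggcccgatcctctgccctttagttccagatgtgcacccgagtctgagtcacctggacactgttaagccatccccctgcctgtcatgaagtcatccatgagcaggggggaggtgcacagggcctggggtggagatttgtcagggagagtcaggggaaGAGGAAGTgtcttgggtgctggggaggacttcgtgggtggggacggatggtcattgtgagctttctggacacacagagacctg

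Pik3cg, the PI3-kinase gamma catalytic chain that acts below chemokine receptors, stood at 119 and 118 CPM at day 12 and then at 15.2 and 20.9 CPM after 12 days off (log2 fold -2.72, SE 0.15, edgeR adjusted p = 1.45e-09). Its match lies 183 bases before the start. Apobr, a receptor for apolipoprotein B48, went from 118 and 123 to 4.52 and 3.74 CPM (log2 fold -4.87, SE 0.16). Arrb2, beta-arrestin 2, which switches off G protein-coupled receptors, went from 207 and 208 to 36.6 and 28.7 CPM (log2 fold -2.67, SE 0.12). Pde3b, a phosphodiesterase, went from 22.98 and 21.46 to 0.491 and 0.912 CPM (log2 fold -4.96, SE 0.33), and P2ry10, a lysophospholipid receptor, from 49.8 and 49.2 to 2.16 and 3.06 CPM (log2 fold -4.24, SE 0.24). The libraries of the groups did not overlap in these 5 genes, as was so for 8894 of all 8917 called genes.

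Sensors of microbes and a signal carrier below them were lower. Tlr7, an endosomal RNA receptor, went from 8.53 and 8.19 to 0.687 and 1.23 CPM (log2 fold -3.10, SE 0.24), and Irak4, the kinase shared by Toll-like and IL-1 receptors, from 38.3 and 40.8 to 12.1 and 12.6 CPM (log2 fold -1.68, SE 0.11). Ddx58, which encodes the RNA sensor RIG-I, went from 95.3 and 95.1 to 22.6 and 28.9 CPM (log2 fold -1.88, SE 0.13). Bst2, an interferon-induced membrane protein, was the exception that rose, from 37.1 and 42.8 to 117 and 71.1 CPM (log2 fold 1.23, and 0.55 with the length trend removed). Nfkb1 fell from 265 and 274 to 109 and 132 CPM, while Tnfaip3, which dampens NF-kB, rose from 56.7 and 60.9 to 84.2 and 97.8 CPM (log2 fold 0.63, SE 0.13).

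Receptors and kinases of cytokine signalling were mostly lower. Jak2 went from 141 and 133 to 48.4 and 50.9 CPM (log2 fold -1.46, SE 0.11), and Stat3 from 300.2 and 289.6 to 80.0 and 102 CPM (log2 fold -1.69, SE 0.12). Tgfbr2, the TGF-beta type II receptor, went from 122 and 113 to 20.5 and 24.4 CPM (log2 fold -2.39, SE 0.13), and Il5ra, the IL-5 receptor alpha chain of eosinophils, from 39.3 and 41.7 to 1.52 and 2.19 CPM (log2 fold -4.44, SE 0.21). Over JAK-STAT genes 5 of 21 rose (3 without either day 12 replicate, 2 with the 4 libraries alone) and 11 fell, or 6 and 12 with the length trend removed. Over PI3-kinase and mTOR genes 2 of 30 rose (4 without either later replicate) and 16 fell, with a median log2 fold of -0.45, but with the length trend removed 8 rose, 14 fell and the median was -0.20. Over TGF-beta and BMP genes 6 of 25 rose and 13 fell (8 without replicate A of either time, 4 with the 4 libraries alone), or 9 and 10 with the length trend removed. Socs1, a feedback inhibitor of JAK kinases, rose from 19.0 and 19.8 to 48.9 and 36.6 CPM (log2 fold 1.14, SE 0.18). Of 29 Wnt and Notch genes 7 rose and 13 fell (9 and 9 with the length trend removed). Notch receptors moved apart, where Notch1 went from 145 CPM in both libraries to 22.8 and 43.5 CPM (log2 fold -2.13, SE 0.21) and Notch3 from 4.38 and 4.80 to 16.3 and 27.4 CPM (log2 fold 2.25, SE 0.27).

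Feedback regulators of the MAP kinase pathway went in opposite directions. The phosphatase Dusp1 went from 96.7 and 87.6 to 6.63 and 6.52 CPM (log2 fold -3.81, SE 0.24). Dusp2, another phosphatase of the family, went from 33.3 and 33.9 to 190.5 and 133 CPM (log2 fold 2.26, SE 0.17), and Spry2, an inhibitor of receptor tyrosine kinase signalling, from 7.20 and 7.47 to 40.4 and 36.9 CPM (log2 fold 2.39, SE 0.17). Over the list of immediate-early and feedback genes 10 of 30 rose and 14 fell (10 and 12 with the length trend removed).

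**Figure D5:**
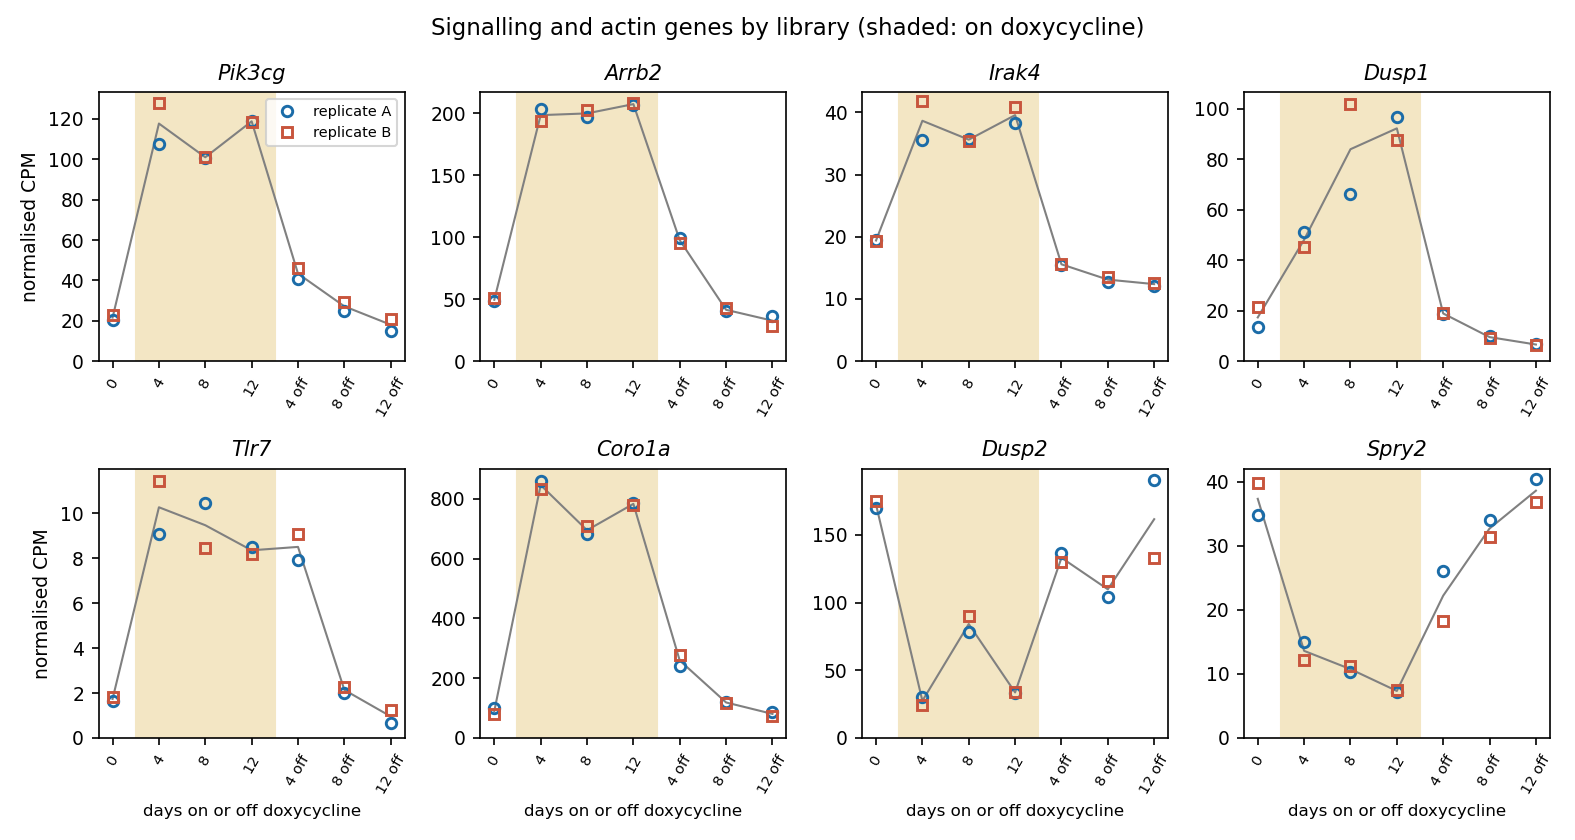
Normalised CPM (vertical axes, from 0) of 8 genes in each library over the course (horizontal axes, days on or off doxycycline), with circles for replicate A, squares for replicate B, a line through the means and shading for the doxycycline phase. Pik3cg, Arrb2, Irak4, Dusp1, Tlr7 and Coro1a are lower 12 days off than at day 12, and Dusp2 and Spry2 are higher. Tlr7 averages 8.51 CPM at 4 days off, near its day 12 mean of 8.36 CPM, and 2.14 CPM at 8 days off.

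Genes of the actin skeleton, adhesion and the oxidative burst were mostly lower. Of 48 actin genes, 38 fell and 0 rose, with a median log2 fold of -0.88 (-0.88 with replicate A alone, -0.87 with B alone). With the length trend removed 43 fell and 2 rose, and without replicate B of the later time 3 rose. Myo1f, a myosin of leukocytes, went from 350 and 344 to 17.1 and 19.7 CPM (log2 fold -4.23, SE 0.14, edgeR adjusted p = 7.88e-12). Coro1a, coronin, which binds actin at the cell edge, went from 787 and 779 to 88.4 and 72.5 CPM (log2 fold -3.28, SE 0.13). Among integrin and adhesion genes 24 of 33 fell and 5 rose (23 and 6 with the length trend removed). Itgb2, the beta 2 integrin chain that pairs with CD11b, went from 1934 and 1819 to 295 and 385 CPM (log2 fold -2.46, SE 0.14). All but 1 of 8 oxidative burst genes fell in both fits, with Ncf1, the p47 subunit of the phagocyte oxidase, at 427 and 418 and then 43.2 and 41.1 CPM (log2 fold -3.33, SE 0.10). Vesicle and exocytosis genes fell in 19 of 26 in both fits, among them Stx3, a syntaxin of granule release (214 CPM in both libraries to 54.5 and 65.8 CPM). Matrix genes did not follow. There 10 of 24 rose and 8 fell (13 and 6 with the length trend removed, 5 lower with the 4 libraries alone), with the inhibitors of matrix proteases moving apart: Timp2 went from 156 and 141 to 22.1 and 19.2 CPM (log2 fold -2.85, SE 0.12) and Timp3 from 0.137 and 0.0799 to 7.81 and 10.9 CPM (log2 fold 6.37, SE 0.47).

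Markers of mature lineages moved in the same comparison. The summed level of 13 neutrophil granule genes was 953 and 921 CPM at day 12 and 85.4 and 101 CPM after 12 days off. All 13 fell, with a median log2 fold of -6.55. For 10 eosinophil genes the sums were 8587 and 9581 against 4273 and 4353 CPM (9 fell, median log2 fold -5.29). For 7 megakaryocyte genes they were 811 and 842 against 122 and 133 CPM (6 fell and 1 rose, median -1.87). The 12 macrophage and monocyte genes summed to 1815 and 1840 against 1450 and 1250 CPM (9 fell and 1 rose, median -2.57). A sum is carried by the genes of highest level, so it can change less than most members do. Retnlg, Ear2 and Fcgr1, of the neutrophil, eosinophil and macrophage lists, were among the markers with 0 reads after 12 days off. Azurophil granule genes, which mark earlier stages, rose in 5 of 9 and fell in 1, and their sums were 1534 and 1549 against 2026 and 1743 CPM. With the length trend removed 2 of the 9 rose and 4 fell. Basophil and mast cell genes rose in 3 of 9 and fell in 4, erythroid genes in 3 and 1 of 5, T and NK cell genes in 2 and 2 of 8, dendritic cell genes in 2 and 4 of 6, stem and progenitor genes in 2 and 5 of 10, and haematopoietic transcription factors in 2 and 17 of 33. Of the 3 measured B cell markers 1 rose and 1 fell, and they summed to at most 4.27 CPM in any of the 4 libraries. In these bulk libraries fewer mature cells and less RNA per cell cannot be told apart, and the part of the lineage markers in the signalling and structural results was not tested.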

How the data were processed

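Whole-number read counts for each Entrez gene were deposited with gene lengths, per the file headers. The submitters' processing notes name featureCounts, edgeR, limma and mm10. The aligner and strand setting are not given in the sources used here, so overlapping and antisense genes cannot be told apart. All genes pass 0.5 CPM in 3 or more of the 16 libraries. A GRCm38.p6 gene table named 13216 of 13652 genes, and 10257 had a promoter.

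Counts were scaled with TMM and fitted with 1 mean for each of 8 groups by the two-sided quasi-likelihood test in edgeR 4.0.16 under R 4.3.3, with limma 3.58.1 for voom and Benjamini-Hochberg adjustment over all genes. There were 8 residual degrees of freedom, and the biological coefficient of variation was 10.9%. The low-count filter (filterByExpr) removed 0 genes. The script was tested on simulated counts. Floors for genes with 0 reads cover counting error only.

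The 58 pathway and 12 lineage lists (1739 of 1940 entries measured) and the members were chosen with earlier results of these data known, and are described by counts and medians. Named genes were Spi1, Itgam, S100a9 and Ptgds, the 15 largest rises and falls called without overlap at an average of 10 CPM or more, up to 3 called genes per pathway list in its main direction and 2 in the other by adjusted p, and the 10 largest rises and falls of 50 CPM or more outside lineage lists. The rule named 297 genes, and 152 of them were followed through the alternatives. These were RLE factors, library size alone, no filter, a mean of 1 CPM, DESeq2, limma-voom, the 4 libraries alone, a replicate block, leaving out each library or the mitochondrial genome, and, chosen after seeing the data, length-trend offsets. Some genes named by the rule are not reported here.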

Additional observations from a re-analysis of the deposited data

How the results depend on the processing

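Of 8917 genes called, with 3924 beyond 2-fold, the counts stayed within 1.5 times under 14 alternatives, except that the 4 libraries alone called 2865 genes lower in place of 4425. In that fit 38 of 116 counts of list members, in 32 lists, moved by more than 1.5 times. It had fewer samples and took its spread from the compared groups alone. Replicates differed most at 12 days off (chi-square over its degrees of freedom 71.4, against 2.90 to 18.5 in the other groups). The main fit shares its estimate of spread among 8 groups, so its SEs and p-values may be too small here. Which of these lowered the counts was not tested. Leaving out 1 library gave 7436 to 9627 calls. A replicate block gave 9038 calls, with 3917 beyond 2-fold. The labels do not say that the replicate letters pair samples. The correlation of A minus B was -0.043 between the 2 groups compared. It was over 0.1 in 8 of 28 pairs of groups, and 0.119 to 0.251 among the times off doxycycline. Of 2110 values of single genes under alternatives, 2107 kept direction and call, 0 reversed, and 3 lost the call, 1 of them that of COX1 (log2 fold 0.29 with length-trend offsets, edgeR adjusted p = 0.0984). Most of the genes followed were named for a low adjusted p or a large fold in these same data. Few lost calls were thus likely in advance, and the count does not speak for other genes. Over all genes the 4 libraries alone called 6001 in place of 8917. The log2 fold of Spi1 lay between -1.99 and -2.64 under all 14, and its edgeR adjusted p was 0.00379 with the 4 libraries alone.

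Of 811 list medians under alternatives, 23 in 11 lists changed sign, most by less than the spread between libraries, in lists with a median near 0. Those beyond that spread follow. The mitochondrial genome (-0.07) went to 0.03 with library size alone and 0.07 without replicate B of day 12. Fatty acid synthesis (-0.03) went to 0.08 with library size alone and 0.22 with length-trend offsets, and polyamines (0.09) to -0.13 with the offsets. Matrix genes (0.36) went to -0.06 at a mean of at least 1 CPM. Immediate-early and MAP kinase feedback genes (0.00) lay between -0.28 and 0.02 with 1 library left out, at -0.17 and -0.28 without replicate A or B of 12 days off. The cause was not tested. With 2 libraries a group, fold sizes rest on few samples.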

Other observations

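Ptprf, Ptpru and Espn, which are in no pathway list, were named for the size of their rise. Ptprf, a receptor-type tyrosine phosphatase, went from 3.88 and 4.12 CPM at day 12 to 92.7 and 112 CPM after 12 days off (log2 fold 4.68, SE 0.20, edgeR adjusted p = 1.47e-10), above its day 0 mean of 21.9 CPM. Ptpru, of the same family, went from 5.20 and 5.51 to 108 and 141 CPM (log2 fold 4.54, SE 0.20), below its day 0 mean of 305 CPM. Espn, which encodes the actin-bundling protein espin, went from 11.2 and 9.99 to 180 and 129 CPM (log2 fold 3.87, SE 0.26), against a broad fall of other actin genes. Its means were 15.2 CPM at day 0, 29.3 CPM at 4 days off and 72.1 CPM at 8 days off.

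Adgre4, an adhesion receptor of the EGF-TM7 family, had 1686 reads in the day 12 libraries and 0 reads in those 12 days off, at least 506-fold lower with 3 reads over both libraries as the floor. Lsp1, a leukocyte actin-binding protein, went from 24.1 and 22.9 to 0.147 and 0.0456 CPM, with a log2 fold of -7.86 that was -8.82 without replicate A and -7.22 without replicate B of the later time.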
